A study of Homo sapiens with 2 samples.

Results

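The genes of HLA molecules and antigen processing were examined in HN6 cells that overexpressed ZNF582. There were 39 named genes in 5 groups: class I heavy chains, class I assembly and processing factors, class II genes with the regulators of HLA transcription, ligands of natural killer (NK) cell receptors, and noncoding genes of the major histocompatibility complex (MHC). They were chosen by name, with earlier results of these data known. Of the 39 genes, 38 were in the count table and HLA-G is not analysed here. A minimum of 20 counts over both libraries together left 34, out of 16669 genes examined and 25534 listed. Just above that minimum stood CIITA with 28 counts and HLA-DPB1 with 43, and just below it RAET1G with 17 and HLA-DRB1 with 13.

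The libraries were 1 of HN6 cells with ZNF582 overexpressed from a plasmid and 1 of control HN6 cells of the wild-type genotype. HN6 is an established line of tongue squamous cell carcinoma, and ZNF582 encodes a zinc finger protein of the KRAB class, which recruits transcriptional corepressors. The labels name polybrene as the transfection reagent. They give neither whether control cells carried an empty plasmid nor whether the overexpressing cells were 1 clone. The ZNF582 library held 17792172 counts and the control library 14765244, and ZNF582 itself had 277387 counts in the ZNF582 library, against 14 in the control library. A level is the gene's count scaled to library size (CPM) and divided by its exon length in kilobases, and genes are compared with each other on this scale unless the deposited FPKM is named. Of 10 genes listed as squamous epithelial markers, 10 were in the table. Their summed level was 630 in the ZNF582 library, against 515 in the control library, and the sum alone does not test the labelled cell type. SFN, at 323 in ZNF582 cells and 223 in control cells, and EPCAM, at 126 in ZNF582 cells and 149 in control cells, made up most of that sum. The keratin genes KRT14, at 0.487 in ZNF582 cells and 0.200 in control cells, and KRT6A, at 1.14 in ZNF582 cells and 0.534 in control cells, were low. The other keratin genes of the list were KRT17, at 51.9 in ZNF582 cells and 13.4 in control cells, and KRT5, at 34.1 in ZNF582 cells and 18.7 in control cells. TP63 stood at 4.17 in ZNF582 cells and 2.97 in control cells, and PKP1 at 11.1 in ZNF582 cells and 11.0 in control cells. DSG3 stood at 24.8 in ZNF582 cells and 18.4 in control cells, and CDH1 at 54.0 in ZNF582 cells and 78.7 in control cells. With 1 library per group no difference has a replicate check and no test was made. Intervals are 95% intervals for counting error only, and reads were not marked by molecular identifiers.

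HLA class I molecules display peptides from proteins made inside the cell. A polymorphic heavy chain pairs with beta-2 microglobulin in the endoplasmic reticulum, where peptides cut by the proteasome are imported by the TAP transporter, trimmed by aminopeptidases and loaded with the help of tapasin. CD8 T cells read the result, and tumours that lose class I escape them but become visible to NK cells, which also respond to stress ligands such as MICA and the ULBP proteins. Class II molecules are made mainly by professional antigen-presenting cells, under the transactivator CIITA. Its relative NLRC5 acts on class I genes, and both need the RFX complex on DNA.

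The call rule asked for a fold of 2 or more in scaled counts, with a counting interval that did not include 1. Of the 34 genes, 4 were lower in ZNF582-overexpressing cells, 0 were higher and 30 were neither. The lower genes were the noncoding RNA gene HCP5, the RFX subunit gene RFXAP, CIITA and HLA-DMB. The 4 genes were 11.8% of the 34, and the same rule took 9.27% of all genes examined, with 4.25% higher and 5.02% lower. Among genes with at least 100 counts the rule took HCP5 and RFXAP, 7.41% of 27 genes, against 5.98% of all genes of that depth. The shares were near the background, so the count of called genes does not set the group apart. The log2 fold, ZNF582 over control, was above 0 in 15 genes and below 0 in 19, with a median of -0.13, against a median of -0.01 and a middle range of -0.33 to 0.31 over all genes examined. The interval excluded 1 in 22 of the 34 genes, 8 of them higher and 14 lower, and in 53.8% of all genes examined.

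**Figure D1:**
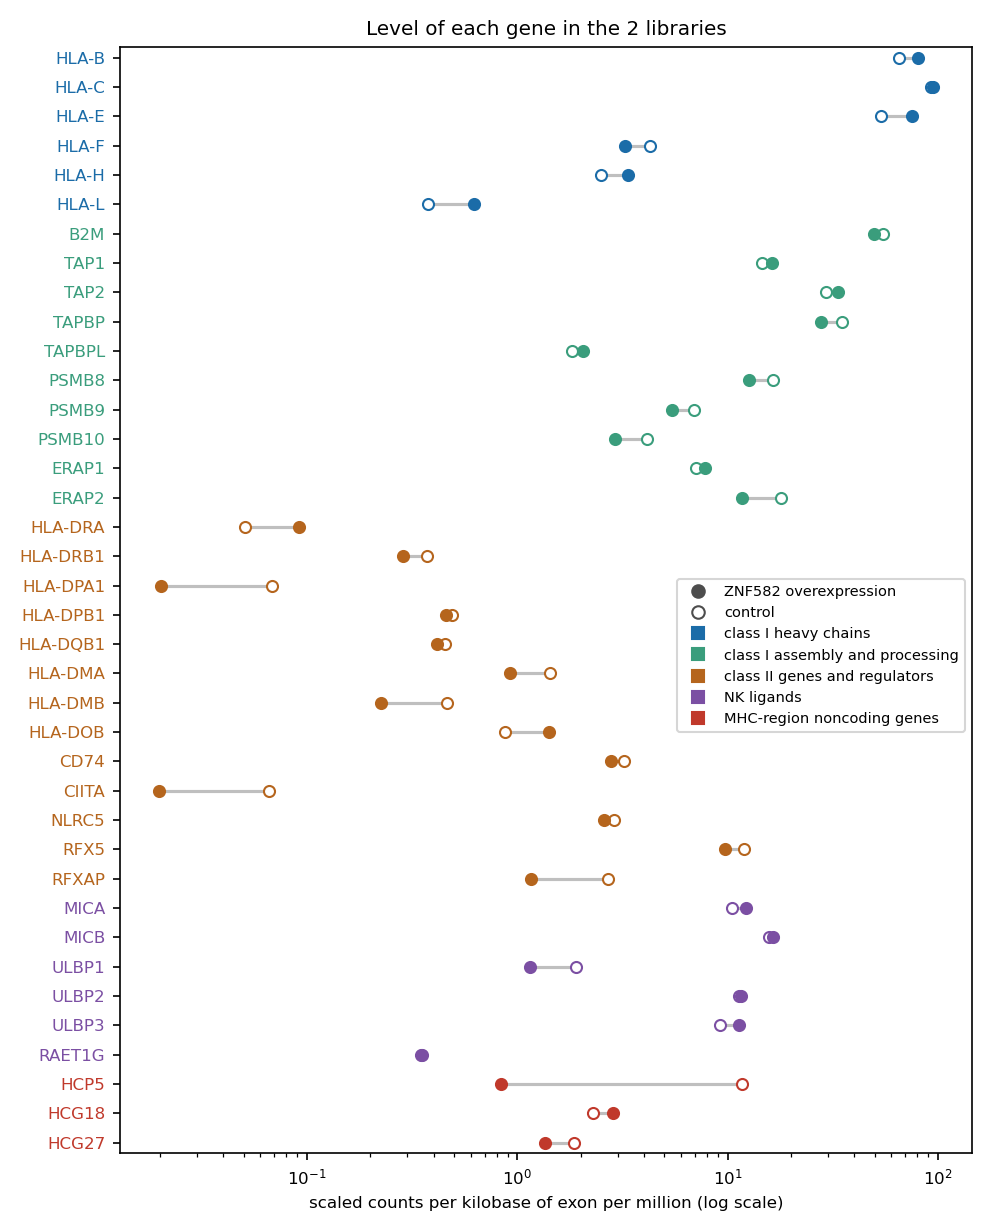
Level of the 38 genes in the table, as CPM per kilobase of exon on a log axis, with 1 filled point for the ZNF582 library and 1 open point for the control library. HLA-C, HLA-B, HLA-E and B2M lead at 49.5 to 95.1 in the ZNF582 library and 53.6 to 92.4 in the control library, the class II chains lie at 1.44 or below, and HCP5 has the widest gap among the 34 genes with at least 20 counts.

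The largest difference among the 34 genes was in HCP5, a noncoding RNA gene that lies in the class I region between MICA and MICB and carries sequence of an endogenous retrovirus. HCP5 had 45 counts in the ZNF582 library, against 567 in the control library. Its level was 0.838 in the ZNF582 library, against 11.8 in the control library. HCP5 was therefore 14-fold lower in ZNF582-overexpressing cells (interval 10.4 to 19.5), a log2 fold of -3.81 (-4.28 to -3.37). In a bulk sample, fewer cells that express a gene and less RNA per cell cannot be told apart. Among the 12492 genes with at least 100 counts, HCP5 ranked 6 from the lowest log2 fold, and among the 593 noncoding genes of that depth it ranked 4. Of those noncoding genes 3.71% were lower and 4.55% higher.

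The table gives HCP5 (ENSG00000206337) as a span on the plus strand of chromosome 6, from 31400702 to 31477506 in GRCh38. That span starts inside MICA, which runs from 31399784 to 31415315 on the same strand. Its exons overlap those of MICA over 62 of 3138 bases, and 3.89% of the 50-base words of its transcripts are also found in transcripts of other genes. MICA had 499 counts in the ZNF582 library versus 384 in the control library, on the other side of 0 from HCP5 in log2 fold. HCP5 had 0.0686 times the level of MICA in the ZNF582 library, against 1.12 times in the control library, and 0.0511 times the level of MICB in the ZNF582 library, against 0.749 times in the control library. Summed over HCP5 and MICA, counts were 544 in the ZNF582 library, against 951 in the control library, and the sum was 1.95-fold lower after scaling (1.75 to 2.17).

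The RefSeq start site of HCP5 lies at 31463180, which is 62.5 kb past the start in the table and 47.9 kb past the end of MICA. The window from 250 bases before to 50 bases after that site was compared with 34795 other RefSeq promoter windows of the GRCh38.p14 build. The closest were those of HLA-F (76.8% identical positions), HLA-B (76.1%), HLA-C (75.5%) and HLA-G (72.8%), and the median over all windows was 49.4%. The MICA and MICB windows, which are 78.2% identical to each other, matched HCP5 at 54.4% and 54.0%. The windows of HCP5, HLA-B and HLA-C are shown because they are alike in sequence, while HCP5 was called lower and HLA-B and HLA-C were not called. Capitals mark matches on either strand to the Y box (CCAAT, read ATTGG on the other strand), bound by NF-Y, and to the half-site of the cyclic AMP response element (TGACG, read CGTCA on the other strand), bound by CREB and ATF factors.
HCP5, chr6:31462930-31463229, plus strand: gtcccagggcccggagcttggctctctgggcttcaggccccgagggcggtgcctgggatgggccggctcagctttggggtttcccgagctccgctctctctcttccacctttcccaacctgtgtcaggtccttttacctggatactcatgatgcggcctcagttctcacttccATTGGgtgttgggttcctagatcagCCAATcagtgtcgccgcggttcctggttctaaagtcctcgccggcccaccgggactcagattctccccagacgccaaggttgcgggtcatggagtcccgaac
HLA-B, chr6:31357130-31357429, minus strand: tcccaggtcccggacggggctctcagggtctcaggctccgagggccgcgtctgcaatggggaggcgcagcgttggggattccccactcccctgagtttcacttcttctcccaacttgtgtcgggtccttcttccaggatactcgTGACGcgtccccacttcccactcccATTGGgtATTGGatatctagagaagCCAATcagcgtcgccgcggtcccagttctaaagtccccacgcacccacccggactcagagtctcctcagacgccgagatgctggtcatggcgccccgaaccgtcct
HLA-C, chr6:31272043-31272342, minus strand: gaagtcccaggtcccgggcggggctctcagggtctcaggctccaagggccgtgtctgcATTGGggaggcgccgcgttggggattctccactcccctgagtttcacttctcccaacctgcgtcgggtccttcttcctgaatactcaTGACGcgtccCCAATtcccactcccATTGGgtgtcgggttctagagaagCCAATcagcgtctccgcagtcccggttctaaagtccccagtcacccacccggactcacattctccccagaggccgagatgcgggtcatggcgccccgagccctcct
The Y box has 2 matches in the HCP5 window, 3 in that of HLA-B and 4 in that of HLA-C, and the HLA-B and HLA-C windows, 88.5% identical to each other, hold TGACG as well, which the HCP5 window does not. The HLA-F window, the closest to HCP5, also holds 2 Y boxes and no TGACG, and HLA-F was not called (log2 fold -0.40). Of all 35116 promoter windows, 34.6% hold a Y box and 24.6% the half-site. Beside a log2 fold of -3.81 for HCP5, HLA-B had 0.30 and HLA-C 0.04.

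HCP5 lay outside the range of the genes around it. Within 500 kb of its start 43 other genes were examined, with a median log2 fold of 0.04 and a range of -1.25 to 1.69. Of these, 3 were lower (TCF19, LY6G5C and HSPA1A) and 3 higher (APOM, SNHG32 and SLC44A4), beside 5.02% lower and 4.25% higher among all genes examined. Of the class I and NK ligand genes around it, HLA-B, MICA and MICB had log2 folds of 0.30, 0.22 and 0.06. Over the whole region of chromosome 6 from 29 to 33.5 megabases, 9 of 141 genes were lower and 3 higher, with a median log2 fold of 0.04. That is 8.51%, against 9.27% of all genes examined.

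**Figure D2:**
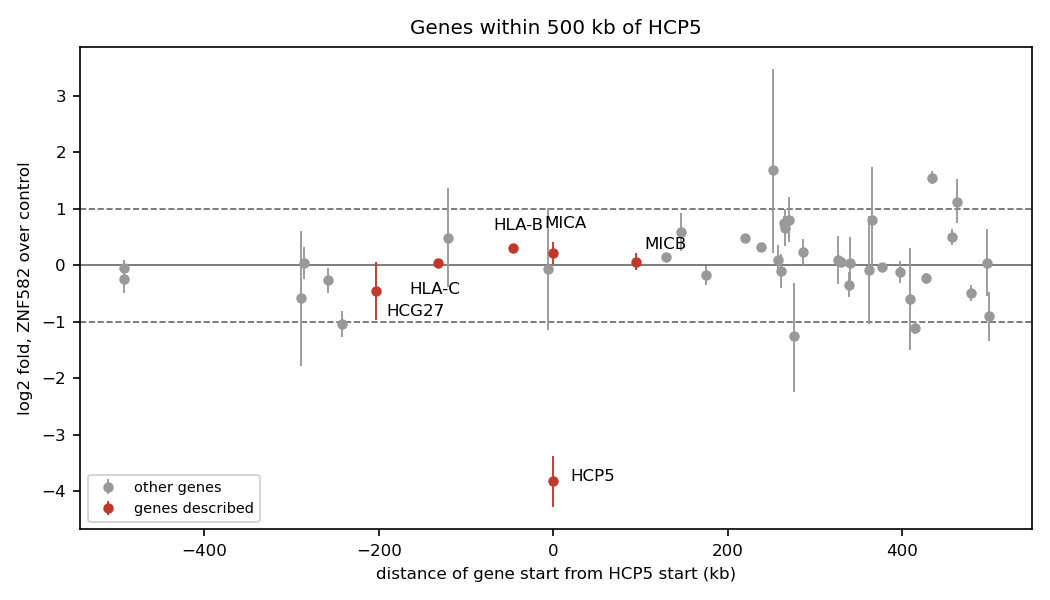
Log2 fold, ZNF582 over control, of each gene examined within 500 kb of the HCP5 start in the table, against the distance of the gene starts in kb. Bars are 95% counting intervals and dashed lines mark 2-fold. HCP5 lies at -3.81, and the 43 other genes lie between -1.25 and 1.69.

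The other noncoding genes were not called. HCG18 had 680 counts in the ZNF582 library, against 491 in the control library, a log2 fold of 0.31 (0.14 to 0.48), and HCG27 had 60 in ZNF582 cells and 74 in control cells, a log2 fold of -0.46 (-0.98 to 0.05). All 3 noncoding genes overlap exons of other listed genes, so a read count can hold reads of the partner. Whether strand was used is not stated, and for HCP5 and MICA, on the same strand, it would not separate them.

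The class I heavy chains present peptides to T cells (HLA-B and HLA-C), serve as ligands of NK receptors (HLA-C and HLA-E), or have narrower roles (HLA-F). None of 6 was called, 5 lay above 0 and 1 below, and the median log2 fold was 0.36. The 6 include the pseudogenes HLA-H and HLA-L, and the median lies between HLA-B at 0.30 and HLA-H at 0.43. It is therefore not a median of the protein-coding chains alone. HLA-E, which presents signal peptides of other class I chains to the NKG2A receptor, had 3843 counts in the ZNF582 library versus 2446 in the control library. Its log2 fold of 0.50 (0.42 to 0.57), or 1.41-fold, was the largest among the 4 protein-coding heavy chains. HLA-B had 4193 counts in the ZNF582 library, against 3061 in the control library, a log2 fold of 0.30 (0.23 to 0.37). HLA-C had 4079 in ZNF582 cells and 3555 in control cells, a log2 fold of 0.04 (-0.02 to 0.11), whose sign turns to -0.07 when the libraries are scaled by total counts alone. The order of levels was the same in both libraries. HLA-C stood at 95.1 in ZNF582 cells and 92.4 in control cells, HLA-B at 80.3 in ZNF582 cells and 65.3 in control cells, and HLA-E at 75.5 in ZNF582 cells and 53.6 in control cells. The order rests on the exon lengths: in the deposited FPKM, which imply other lengths, HLA-E led with 54.6 in ZNF582 cells and 41.9 in control cells. With 1 library each, no spread is known for these neighbours in the order.

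HLA-F, a chain of low surface expression, lay below 0, with 241 counts in the ZNF582 library versus 285 in the control library and a log2 fold of -0.40 (-0.65 to -0.15). The pseudogenes HLA-H (63 counts in the ZNF582 library, 42 in the control library) and HLA-L (59 in ZNF582 cells, 32 in control cells) had log2 folds of 0.43 (-0.16 to 1.03) and 0.73 (0.08 to 1.39). Shared sequence limits these values: 46.5% of the 50-base words of HLA-H, 21.6% of HLA-F and 17.8% of HLA-B also occur in transcripts of other genes. The shares were 5.70% in HLA-C and 4.87% in HLA-E. For HLA-F and HLA-B the leading other genes include HLA-F-AS1 and AL671883.2, whose exons overlap theirs, so these shares are not of near copies alone. A sum over the 6 genes is less open to reads shared among them. It held 12478 counts, 0.0701% of the ZNF582 library (Wilson interval 0.0689 to 0.0714), and 9421 counts, 0.0638% of the control library (0.0625 to 0.0651), a ratio of 1.19 (1.16 to 1.22) after scaling.

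Beta-2 microglobulin, the invariant light chain, lay below 0, unlike HLA-B and HLA-E. Of the other protein-coding heavy chains, HLA-C lay near 0 and HLA-F below it. B2M had 5153 counts in the ZNF582 library, against 5121 in the control library, a log2 fold of -0.15 (-0.20 to -0.09), and none of its 50-base words occur in other genes. The level of HLA-E stood at 1.52 times that of B2M in the ZNF582 library, against 0.976 times in the control library. For HLA-B the ratio to B2M was 1.62 in the ZNF582 library versus 1.19 in the control library, and for HLA-C 1.92 in ZNF582 cells and 1.68 in control cells. The change in the ratio had a counting interval of 1.46 to 1.66 for HLA-E, 1.28 to 1.45 for HLA-B and 1.07 to 1.21 for HLA-C. These ratios within a library do not depend on how the libraries are scaled. Their size rests on the exon lengths, while the change between the libraries does not. In the deposited FPKM, HLA-E stood above B2M in both libraries. HLA-E had 54.6 in ZNF582 cells and 41.9 in control cells, and B2M had 22.7 in ZNF582 cells and 27.2 in control cells.

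**Figure D3:**
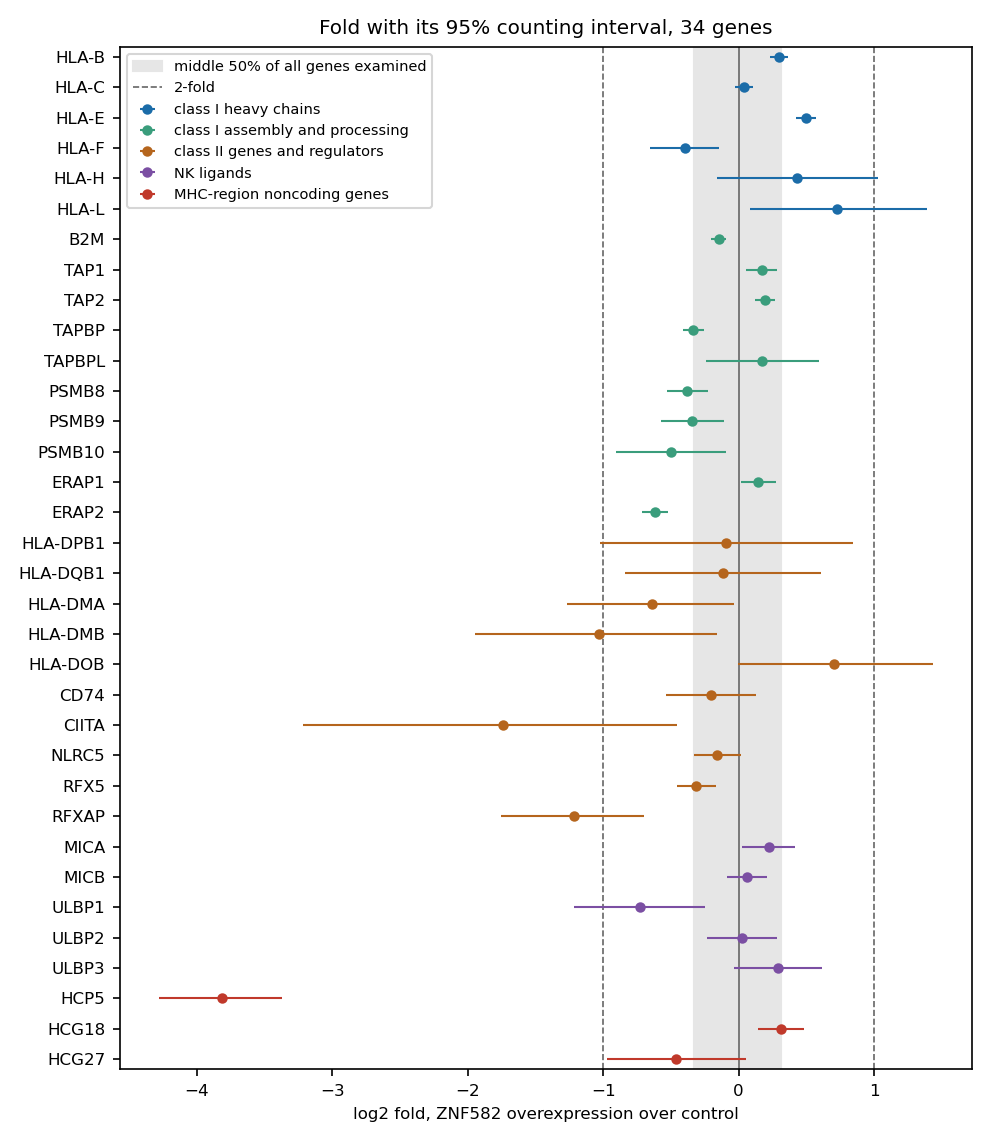
Log2 fold, ZNF582 over control, of the 34 genes with at least 20 counts, as points with 95% counting intervals, in the order of the groups. The dashed lines mark 2-fold and the grey band the middle 50% of all genes examined, from -0.33 to 0.31; HCP5, CIITA, RFXAP and HLA-DMB lie beyond the lower line.

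None of the 10 assembly and processing genes was called. Of these 4 lay above 0 and 6 below, with a median log2 fold of -0.24. The 3 subunits of the immunoproteasome, the interferon-inducible form of the protease that makes class I peptides, lay below 0. PSMB8 had 647 counts in the ZNF582 library, against 754 in the control library, a log2 fold of -0.38 (-0.53 to -0.22). PSMB9 had 287 in ZNF582 cells and 326 in control cells, a log2 fold of -0.34 (-0.57 to -0.11), and PSMB10 had 93 in ZNF582 cells and 118 in control cells, a log2 fold of -0.50 (-0.91 to -0.10). Their sum was 1027 counts in the ZNF582 library, against 1198 in the control library, 1.3-fold lower (1.2 to 1.41), which is under the 2-fold rule.

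Each immunoproteasome subunit replaces a constitutive catalytic subunit, so the ratio within a library compares the forms. PSMB8 per PSMB5 was 0.501 in the ZNF582 library versus 0.584 in the control library. PSMB9 per PSMB6 was 0.165 in the ZNF582 library, against 0.229 in the control library. PSMB10 per PSMB7 was 0.0472 in the ZNF582 library, against 0.0696 in the control library. All 3 ratios were lower in the ZNF582 library, and the counting intervals of the change were 0.741 to 0.991, 0.595 to 0.868 and 0.512 to 0.897. By these levels the constitutive subunit was the more abundant RNA in each pair, but for PSMB8 and PSMB5 this rests on the exon lengths: in the deposited FPKM, PSMB8 stood at 11.8 in ZNF582 cells and 16.6 in control cells, and PSMB5 at 12.1 in ZNF582 cells and 14.6 in control cells. Exons of PSMB8 and PSMB9 overlap each other and those of PSMB8-AS1, which had 13 counts in the ZNF582 library versus 36 in the control library. Exons of PSMB10 overlap those of AC040162.1 over 644 of 1853 bases, and 27.5% of its 50-base words also occur in transcripts of other genes.

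The TAP peptide transporter is made of TAP1 and TAP2, and both lay a little above 0. TAP1 had 1344 counts in the ZNF582 library, against 1072 in the control library, a log2 fold of 0.17 (0.05 to 0.29), and TAP2 had 3683 in ZNF582 cells and 2887 in control cells, a log2 fold of 0.19 (0.12 to 0.27). TAP1 per TAP2 was 0.485 in the ZNF582 library, against 0.494 in the control library, and the interval of the change, 0.895 to 1.08, included 1. Of the 50-base words of TAP2, 31.3% also occur in transcripts of other genes, against 9.78% of those of TAP1. Tapasin, the loading factor that holds class I to TAP, had 2408 counts of TAPBP in the ZNF582 library versus 2721 in the control library, a log2 fold of -0.33 (-0.41 to -0.25). The related peptide editor TAPBPL had 112 in ZNF582 cells and 89 in control cells, a log2 fold of 0.18 (-0.24 to 0.59).

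The aminopeptidases that trim peptides in the endoplasmic reticulum differed from each other. ERAP1 had 1063 counts in the ZNF582 library, against 862 in the control library, a log2 fold of 0.15 (0.01 to 0.28). ERAP2 had 1489 in ZNF582 cells and 2050 in control cells, a log2 fold of -0.62 (-0.72 to -0.52), the lowest of the 10 genes. The level of ERAP2 was 1.5 times that of ERAP1 in the ZNF582 library, against 2.55 times in the control library, and the interval of that change was 0.527 to 0.659. Almost none of the words of ERAP2 (0.249%) occur in other genes.

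Class I assembly genes are classic targets of interferon, through promoters that bind IRF factors. The interferon response element, searched on both strands as GAAA and GAAA with any 2 bases between them, occurs in 3.57% of all promoter windows and in 10 of the 43 windows of the 33 genes that have one in RefSeq. They belong to B2M, ERAP1, ERAP2, HLA-F, PSMB8, PSMB10, RFX5, TAP1, TAP2 and TAPBP. These had log2 folds on both sides of 0, with ERAP2 at -0.62 and TAP2 at 0.19. The gamma-activated site, searched as TTCNNNGAA, occurs in windows of PSMB8 and TAP1 and in 7.66% of all windows. The kappa B site, searched as GGGANTTCC, occurs in those of HLA-DPA1, TAPBP and TAPBPL and in 1.85% of all. Only these exact strings were searched, and other forms of the 3 elements were not counted. A window without a match, such as that of HLA-B or HLA-C, was therefore not shown to lack them. The B2M window is shown because it holds 2 overlapping interferon response elements in 1 run of capitals, with a half-site (TGACG) and a Y box (ATTGG) after it.
B2M, chr15:44711267-44711566, plus strand: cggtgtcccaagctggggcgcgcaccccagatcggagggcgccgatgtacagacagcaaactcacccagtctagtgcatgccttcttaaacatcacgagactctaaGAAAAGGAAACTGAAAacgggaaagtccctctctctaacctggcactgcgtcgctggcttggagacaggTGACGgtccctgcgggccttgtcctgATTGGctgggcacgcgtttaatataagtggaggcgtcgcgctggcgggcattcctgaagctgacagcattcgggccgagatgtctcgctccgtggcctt

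Among the 10 class II genes and regulators that were examined, 3 were lower, 0 higher and 7 neither, beside 5.02% lower among all genes examined. Of the 3, RFXAP alone has at least 100 counts, and CIITA and HLA-DMB rest on 28 and 51 counts over both libraries. The log2 fold lay above 0 in 1 gene and below 0 in 9, with a median of -0.26. RFXAP, a subunit of the RFX complex that binds the X box of class II and class I promoters, had 46 counts in the ZNF582 library, against 96 in the control library. It was 2.33-fold lower in ZNF582-overexpressing cells (1.62 to 3.38). No exon of RFXAP overlaps another listed gene, and none of its words occur elsewhere. Its partners in the complex were not called: RFX5 had 761 counts in the ZNF582 library versus 847 in the control library, a log2 fold of -0.31 (-0.45 to -0.17), and RFXANK had 122 in ZNF582 cells and 119 in control cells, a log2 fold of -0.12 (-0.50 to 0.26). The level of RFXAP was 0.120 times that of RFX5 in the ZNF582 library, against 0.225 times in the control library. The RFXAP window is shown as that of the called gene with no exonic overlap and no shared words, and holds a single half-site (TGACG).
RFXAP, chr13:36818972-36819271, plus strand: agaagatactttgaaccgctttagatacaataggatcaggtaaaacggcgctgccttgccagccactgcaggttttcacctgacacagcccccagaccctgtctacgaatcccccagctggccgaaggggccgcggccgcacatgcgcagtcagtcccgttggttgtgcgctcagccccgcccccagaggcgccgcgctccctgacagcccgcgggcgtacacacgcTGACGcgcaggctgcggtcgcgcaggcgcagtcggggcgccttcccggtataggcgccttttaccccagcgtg

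CIITA, the transactivator of class II genes, was 3.34-fold lower (1.37 to 9.31), on 7 counts in the ZNF582 library, against 21 in the control library. Its exons overlap those of DEXI over 2416 of 20757 bases. HLA-DMB, 1 chain of the DM molecule that exchanges peptides on class II, was 2.04-fold lower (1.12 to 3.85), on 18 counts in the ZNF582 library, against 33 in the control library. The other DM chain, HLA-DMA, had 40 counts in ZNF582 cells and 56 in control cells, a log2 fold of -0.64 (-1.26 to -0.03), and was not called. The lower bounds of both called folds are well under 2-fold.

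NLRC5, the class I counterpart of CIITA, had 548 counts in each library, a log2 fold of -0.16 (-0.33 to 0.02). CD74, the invariant chain that guards class II on its way to the endosome, had 152 counts in the ZNF582 library versus 157 in the control library, a log2 fold of -0.20 (-0.53 to 0.13). HLA-DOB, a chain of the DO modulator of DM, was the gene above 0, with 49 counts in ZNF582 cells and 27 in control cells and a log2 fold of 0.70, whose interval reached from just under 0 to 1.44. Of its 50-base words, 26.1% also occur in transcripts of other genes. HLA-DPB1 had 22 counts in the ZNF582 library, against 21 in the control library, and HLA-DQB1 had 35 in ZNF582 cells and 34 in control cells, with log2 folds of -0.09 and -0.11.

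The classical class II chains were barely present in either library. HLA-DRA had 2 counts in the ZNF582 library, against 1 in the control library, HLA-DRB1 had 6 in ZNF582 cells and 7 in control cells, and HLA-DPA1 had 2 in ZNF582 cells and 6 in control cells, all under the minimum. The 8 class II chain genes together had 174 counts in the ZNF582 library versus 185 in the control library, a log2 fold of -0.24 (-0.55 to 0.06). The leukocytes that make most class II were looked for by markers: 5 of 14 are in the table, and 9 others, PTPRC among them, are not analysed here. Of the 5 none was at 0 in either library, and their summed level was 3.30 in the ZNF582 library, against 2.68 in the control library. Fibroblast and endothelial markers, 6 of 9 in the table, summed to 2.23 in ZNF582 cells and 3.57 in control cells. The part of other cells in the class II values was not tested.

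NK ligands mark stressed or transformed cells for the NKG2D receptor. None of the 5 examined was called, 4 lay above 0 and 1 below, and the median log2 fold was 0.06, which turns to -0.05 when the libraries are scaled by total counts alone. MICA had 499 counts in the ZNF582 library, against 384 in the control library, a log2 fold of 0.22 (0.03 to 0.42). MICB had 785 in ZNF582 cells and 675 in control cells, a log2 fold of 0.06 (-0.09 to 0.21), and ULBP2 had 267 in ZNF582 cells and 235 in control cells, a log2 fold of 0.03 (-0.23 to 0.29). Scaled by total counts alone, MICB and ULBP2 turn to -0.05 and -0.08. ULBP3 had 191 counts in the ZNF582 library versus 140 in the control library, a log2 fold of 0.29 (-0.03 to 0.62). ULBP1 was the gene below 0, with 62 counts in ZNF582 cells and 92 in control cells and a log2 fold of -0.73 (-1.21 to -0.25). Per length, MICB was the most abundant in both libraries, at 16.4 in the ZNF582 library, against 15.7 in the control library, and RAET1G the least, at 0.354 on 9 counts in ZNF582 cells and 0.351 on 8 counts in control cells. The place of MICB rests on the exon lengths, since in the deposited FPKM ULBP2 led with 11.1 in ZNF582 cells and 11.8 in control cells, and MICB had 9.32 in ZNF582 cells and 9.65 in control cells.

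A close relative outside the 39 genes was called higher. RAET1L, another member of the ULBP family and NKG2D ligand, had 227 counts in the ZNF582 library, against 50 in the control library, 4.07-fold higher (2.99 to 5.65). Its level was 0.852 times that of ULBP2 in the ZNF582 library versus 0.213 times in the control library. These genes share sequence, with 31.5% of the words of RAET1L and 32.2% of those of ULBP2 found in other transcripts. Summed over ULBP2, RAET1G and RAET1L, counts were 503 in the ZNF582 library, against 293 in the control library, a log2 fold of 0.62 (0.41 to 0.84), smaller than that of RAET1L alone.

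Other genes of the pathway were taken in 10 lists, 85 examined genes that are not among the 39. Of these 3 were higher, 1 lower and 81 neither, with a median log2 fold of 0.04. Among all genes examined, 4.25% were higher and 5.02% lower. HSPA5 and SEC61A1 were higher among the folding partners of class I in the endoplasmic reticulum, whose median was 0.48 over 8 genes. SEC61A1, a pore subunit of the translocon through which heavy chains enter, had 7079 counts in the ZNF582 library, against 2861 in the control library, 2.22-fold higher (2.13 to 2.32), and shares exonic bases with RUVBL1. RAET1L was the other higher gene. NKRF, a repressor of NF-kappa B target genes, was lower, while the 8 NF-kappa B factors, NKRF included, had a median of 0.40, with RELA at 0.79.

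Signalling genes upstream of the HLA genes mostly stayed within 2-fold. None of 14 genes in a list of interferon gamma signalling genes and IRF factors was called, and their median log2 fold was -0.06. IRF9, a subunit of a transcription factor that answers interferon, came nearest, with 159 counts in the ZNF582 library, against 72 in the control library and a log2 fold of 0.99 (0.58 to 1.41). IRF1, an activator of immunoproteasome and TAP1 promoters, had 631 counts in ZNF582 cells and 797 in control cells, a log2 fold of -0.49 (-0.65 to -0.34). None of the 11 genes in a list drawn around the RFX complex, EZH2 among them, was called, with a median of 0.18. The acetyltransferase gene KAT2B was just short of 2-fold with 86 counts in the ZNF582 library, against 154 in the control library. The 8 genes listed as constitutive catalytic subunits and proteasome activators had a median of -0.04, with 4 above 0 and 4 below. They ran from the activator gene PSME1 at -0.38 to PSME4 at 0.21. The 11 genes of class II proteolysis and turnover had a median of -0.29, with the cathepsin gene CTSL lowest at -0.59 and MARCHF1, a ubiquitin ligase for class II, highest at 0.55.

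**Figure D4:**
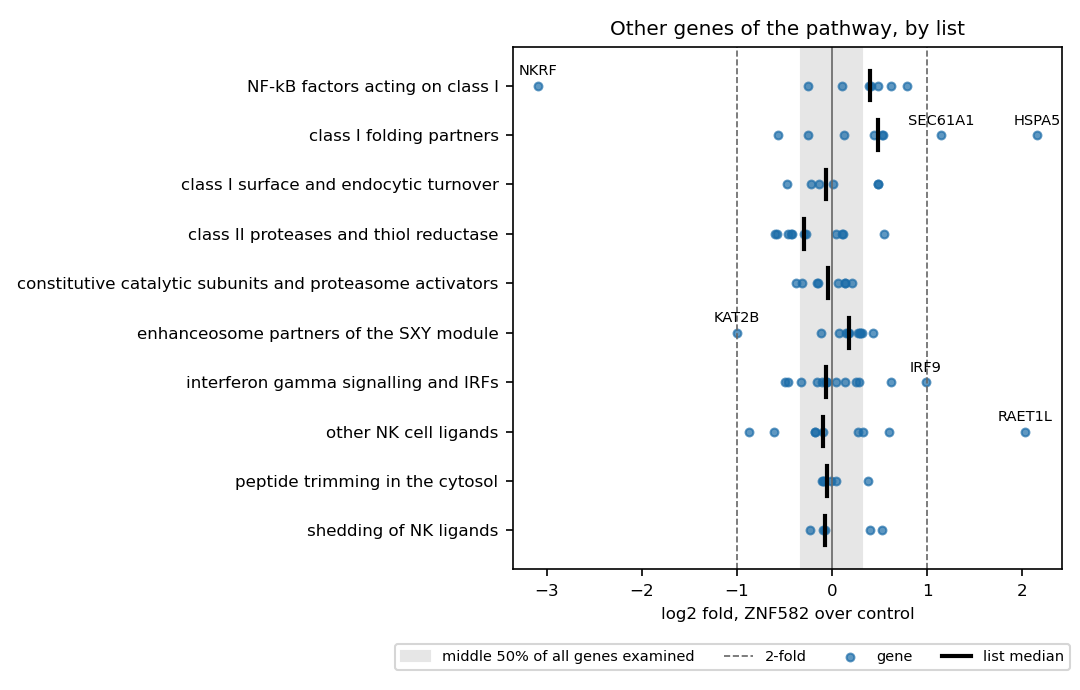
Log2 fold, ZNF582 over control, of other pathway genes with at least 20 counts, 1 point per gene, in 10 lists with the median of each as a black bar. Dashed lines mark 2-fold and the grey band the middle 50% of all genes examined; HSPA5, RAET1L and SEC61A1 lie above 2-fold and NKRF below it.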

How the data were processed

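RNA of 2 HN6 libraries, 1 per group, was sequenced. Per the submitters' processing notes, the tools include StringTie 1.3.0 and HISAT2 2.0.4, and the build is GRCh38. Which program counted reads, whether it used strand and what was filtered is not stated. The table that the authors deposited holds, for each gene and library, a count and FPKM. The deposited counts were treated as estimated counts and are whole numbers in every record; 1 record broken over 2 lines was rejoined.

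Counts were scaled by totals and TMM factors (0.962 for the ZNF582 library, 1.04 for the control library) from edgeR 4.0.16 in R 4.3.3, over genes whose counts summed to 20 or more. Folds carry exact 95% Clopper-Pearson intervals, conditional on the sum of both counts, and the call rule asks for 2-fold and an interval that excludes 1. Ratios of ratios carry Wald intervals. The self-test ran on simulated counts.

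The length behind the deposited FPKM, worked out from counts and totals, was 1.00 to 2.46 times the GENCODE 29 exonic length in the 34 genes examined with enough counts (median 1.59). Levels were therefore recomputed per kilobase of GENCODE exon, and the deposited FPKM values were used only as an alternative.

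Exonic overlap on either strand and shared 50-base words came from GENCODE 29, and promoter windows (GRCh38.p14) from RefSeq, which had windows for 33 of the 39 genes. The 39 genes and all other lists were chosen with earlier results of these data known. Results for a few genes of these lists are not reported here. All 39 were named; of other pathway genes, those past the rule with at least 100 counts and those nearest to 2-fold were named; others shown as the ends of a list's range, or as partners of a named gene, were chosen after their values were seen. Alternatives were other scalings, count minimums, FPKM with pseudocounts and exclusion of overlapping genes. Python 3.11.15, pandas 2.3.3 and scipy 1.17.1 were used.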

Additional observations from a re-analysis of the deposited data

How the results depend on the processing

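Several counts, medians and sums moved with the processing. Higher and lower genes numbered 709 and 836 of 16669 in the main analysis. At a minimum of 100 counts they numbered 395 and 352 of 12492. The rule thus took 5.98% of genes there, against 9.27% in the main analysis. On FPKM with a pseudocount of 1 they numbered 153 and 158 of 16669. Without genes of exonic overlap 10093 genes were left, with 431 higher and 560 lower. A smaller set of genes lowers such counts by itself. The share of called genes that were higher was 45.9% in the main analysis and 52.9% at a minimum of 100 counts, so which direction was the more frequent depends on that minimum. Of the 34 genes 4 were called in the main analysis. At a minimum of 100 counts, which leaves out CIITA and HLA-DMB, 2 of 27 were called (HCP5 and RFXAP). On FPKM 1 of 34 was called with a pseudocount of 1 (HCP5), and 2 of 34 with 0.1 (HCP5 and RFXAP). Without overlapping genes, a filter that removes HCP5 and CIITA, 2 of 15 were called (RFXAP and HLA-DMB). The median of the class I assembly genes, -0.24, was -0.35 under total counts, -0.31 and -0.35 on FPKM with pseudocounts of 1 and 0.1. The log2 fold of the summed class I heavy chains, 0.25, was 0.14 under total counts, 0.17 on FPKM with either pseudocount, and 0.50 without overlapping genes, which leaves HLA-E alone. Total counts without TMM factors moved the median of all genes to -0.12, so folds there read against that shift, and the share of called genes that were higher to 34%. Under total counts and both FPKM settings the small positive folds of HLA-C, MICB and ULBP2 turned negative, and so did the median of the NK ligands (0.06 in the main analysis, -0.05 under total counts). Over all alternatives the log2 fold of HCP5 ran from -3.92 to -2.38, RFXAP from -1.33 to -0.78, HLA-DMB from -1.14 to -0.16, CIITA from -1.85 to -0.06 and RAET1L from 1.54 to 2.03. FPKM with a pseudocount shrinks low genes by construction. DESeq2 size factors, TMM factors without ZNF582 and no minimum count changed none of these calls. The noncoding genes have no value without overlapping genes, since none is left. No paired analysis was possible because each group has 1 library, and none could be left out in turn. Depth limits CIITA, HLA-DMB and every class II chain.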
